A study of Mus musculus with 7 samples.

Results

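Small proline-rich protein (Sprr) genes form a tight cluster on mouse chromosome 3, and 10 of them are described here out of 53715 genes in the expression table: Sprr1a, Sprr1b, Sprr2a1, Sprr2b, Sprr2d, Sprr2e, Sprr2f, Sprr2g, Sprr2h and Sprr3. The table held 17 Sprr genes in all, and the 7 that are not members (Sprr2a2, Sprr2a3, Sprr2c-ps, Sprr2i, Sprr2j-ps, Sprr2k and Sprr4) are given beside them. Members were found by symbol through their Ensembl gene identifiers. They were chosen with their values in these libraries known, so their differences between treatments are a description and carry no test. In the cells the members with the highest values moved in opposite directions. Sprr2a1 was listed about 10.5-fold higher with R406, and 4.79-fold higher when summed with its near copies Sprr2a2 and Sprr2a3. Sprr2b, Sprr2g and Sprr1a were 18.6-fold to 19.8-fold lower. Of the 10 genes, 5 stayed at very low levels, among them 2 listed at 0 in every library.

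Cells were mouse embryonic fibroblasts taken at embryonic day 13.5 from OG2 animals (CBA-Tg(Pou5f1-EGFP)2Mnn/J), which carry a green fluorescent reporter under Pou5f1 control. All RNA libraries came from cells at passage 3 that were moved into Stage 1 medium, a chemical reprogramming mixture renewed every 4 days over 12 days. That medium held serum and serum replacement in DMEM with NEAA, β-ME, bFGF and vitamin C, and the small molecules VPA, CHIR99021, 616452, Parnate, Forskolin, AM580 and EPZ004777. RNA-seq compared 2 libraries given the solvent DMSO with 2 given R406, an inhibitor of the kinase Syk. For CUT&Tag, a method that cuts DNA where an antibody sits, fibroblasts carried rtTA and TetO-Flag-Nfatc1 from lentivirus, so the tagged factor was supplied in excess under doxycycline and was not the cells' own. Those cells stayed 4 days in Stage 1 medium with DMSO or R406, with 1 anti-FLAG library each. The blank library, made with no primary antibody, was not analysed here. No source used here states the R406 concentration or the harvest day of the RNA.

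Sprr proteins are small, rich in proline and glutamine, and are cross-linked by transglutaminases into the cornified envelope, the protein shell beneath the membrane of terminally differentiating squamous cells. Their genes sit in the epidermal differentiation complex beside those of loricrin, involucrin, trichohyalin, late cornified envelope proteins and S100 proteins. Outside skin, Sprr1a is known from injured neurons and stressed heart muscle, Sprr2 genes from gut, bladder and uterus under inflammation, infection or hormones, and Sprr3 from oesophagus. AP-1, Ets and octamer-binding factors are known to act on promoters of this family.

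The 17 genes spanned 284.7 kb, and the members 270.0 kb (chr3:92215835-92485881, mm10, the build of the files, which is GRCm38). In order, the cluster read Sprr2a1, Sprr2a2, Sprr2a3, Sprr2b, Sprr2c-ps, Sprr2d, Sprr2e, Sprr2f, Sprr2g, Sprr2h, Sprr2i, Sprr2j-ps, Sprr2k, Sprr1b, Sprr3, Sprr1a and Sprr4. RefSeq gave 10 of the 14 genes that have an upstream window the plus strand, from Sprr2a1 to Sprr2k, and the 4 at the far end (Sprr1b, Sprr3, Sprr1a and Sprr4) the minus strand. RefSeq classed Sprr2g as a transcribed pseudogene, so its RNA may encode no Sprr protein. The Sprr2a1 span was 6657 bases long against 1381 for Sprr2b and 1928 for Sprr1a.

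Upstream windows from RefSeq (GRCm38.p6) show how members differ in sequence. Printed are the 250 bases before the gene start for the member that was higher with R406 (Sprr2a1), for 2 that were lower and stand at different ends of the cluster (Sprr2b and Sprr1a), and for Sprr2d, which resembles Sprr2b here but was listed at 0. Capitals mark matches to the AP-1 motif (TGANTCA) and the octamer (ATTTGCAT) on either strand.
Sprr2a1, chr3:92215585-92215834, plus strand: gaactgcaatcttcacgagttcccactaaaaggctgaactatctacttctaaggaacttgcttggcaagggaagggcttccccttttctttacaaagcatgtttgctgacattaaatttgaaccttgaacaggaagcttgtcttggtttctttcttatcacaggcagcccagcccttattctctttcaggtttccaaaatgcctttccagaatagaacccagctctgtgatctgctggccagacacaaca
Sprr2b, chr3:92316455-92316704, plus strand: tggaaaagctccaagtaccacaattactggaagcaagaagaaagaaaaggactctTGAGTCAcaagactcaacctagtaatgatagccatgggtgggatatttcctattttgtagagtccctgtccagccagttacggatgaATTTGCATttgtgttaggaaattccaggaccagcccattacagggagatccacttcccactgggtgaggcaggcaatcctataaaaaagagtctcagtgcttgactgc
Sprr2d, chr3:92338890-92339139, plus strand: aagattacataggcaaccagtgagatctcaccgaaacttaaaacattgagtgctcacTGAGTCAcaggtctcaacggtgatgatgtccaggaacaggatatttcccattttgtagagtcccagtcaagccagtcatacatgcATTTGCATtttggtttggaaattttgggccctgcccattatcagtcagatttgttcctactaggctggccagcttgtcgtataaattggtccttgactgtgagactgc
Sprr1a, chr3:92485882-92486131, minus strand: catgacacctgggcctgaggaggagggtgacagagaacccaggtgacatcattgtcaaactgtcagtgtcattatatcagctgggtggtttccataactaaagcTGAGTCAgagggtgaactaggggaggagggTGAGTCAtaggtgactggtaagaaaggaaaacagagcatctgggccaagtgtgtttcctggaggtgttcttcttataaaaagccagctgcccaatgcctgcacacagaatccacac

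The AP-1 motif was matched in 9 of the 14 Sprr windows (Sprr2b, Sprr2d, Sprr2e, Sprr2f, Sprr2h, Sprr2i, Sprr2k, Sprr1b and Sprr1a), against 6.75% of all 32851 windows of the same length in the table. The octamer was matched in 7 (Sprr2b to Sprr2k among these), against 1.6% of all windows, and a TATA box (TATAAA) in 10, against 12.4%. In the 7 Sprr2 windows with an octamer, its first base lay 108 to 112 bases before the gene start and the TATA box began 29 bases before it. Sprr2a1, Sprr2a2 and Sprr2a3 had no match to AP-1, octamer or TATA box in this window. The core of NFAT sites (GGAAA), a short string, was matched in 11 of the 14 windows and in 55.6% of all windows, and a STAT motif (TTCNNNGAA) in 1 of the 14 and in 7.02%. No matches of different motifs shared bases in the Sprr windows. These paralogs descend from one another, so the windows are not independent, and a match is a run of letters, not a measured site.

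Set beside the RNA values given below, the AP-1 motif was matched in all 6 windows of genes whose R406 libraries lay wholly below the DMSO libraries (Sprr2b, Sprr2e, Sprr2i, Sprr2k, Sprr1b and Sprr1a) and in 0 of the 4 of genes whose R406 libraries lay wholly above (Sprr2a1, Sprr2a2, Sprr2a3 and Sprr3). The octamer was matched in 4 of the 6 and 0 of the 4. Both motifs were also matched for Sprr2f, whose groups overlapped, and for Sprr2d and Sprr2h, listed at 0 in all 4 libraries. This split is a description of related sequences and was not tested, and the members were chosen on these same directions. Sprr2g, also lower, had no upstream window and is not counted. Sprr2a1, Sprr2a2 and Sprr2a3 are near copies here, and Sprr3, Sprr2e and Sprr2i stayed under 1 TPM in every library. The windows are also not in the same register: an 18-base run shared by Sprr2a1 and Sprr2b lay 6 to 23 bases after the annotated start of Sprr2a1 but 80 to 63 bases before that of Sprr2b. Counted from that run, the stretch of Sprr2a1 matching the TATA box of Sprr2b in position would lie after its annotated start, outside the window printed.

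**Figure D1:**
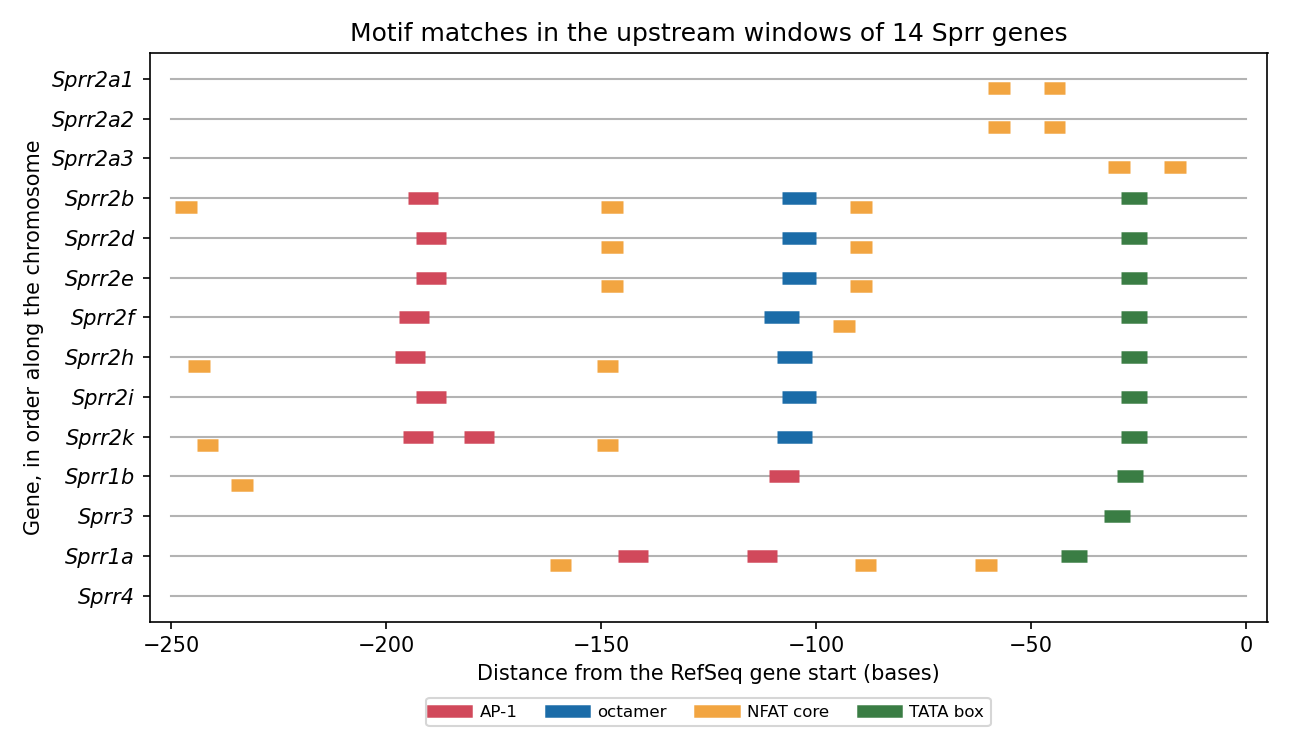
Matches to the AP-1, octamer, NFAT core and TATA box motifs (coloured blocks) in the 250 bases before the RefSeq start of 14 Sprr genes; the x axis gives distance from the start in bases and the y axis the genes in chromosomal order. Sprr2b to Sprr2k share the spacing of AP-1, octamer and TATA box, while Sprr2a1, Sprr2a2 and Sprr2a3 show 2 NFAT core matches each and none of the other motifs drawn.

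Expression was deposited as TPM, a share of transcripts scaled to the same total in each library, which corrects for transcript length and keeps no read depth. At least 1 TPM was reached by 13537 to 14045 genes per library. The TPM share of ribosomal protein genes was 14.4% to 16.2% with DMSO and 19.8% to 23.4% with R406, and that of mitochondrial genes 10.5% to 14.2% and 6.72% to 10.3%. Nothing in the labels says that libraries came from separate cultures, so the p-values below measure only the spread between these libraries, which may be technical. In bulk RNA, fewer expressing cells and less RNA per cell cannot be told apart.

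Sprr2a1 was the member with the highest TPM and the clearest that was higher with R406. It stood at 16.9 and 35.1 TPM in DMSO replicates 1 and 2 and at 297 and 249.9 TPM in R406 replicates 1 and 2. Both R406 libraries lay far above both DMSO libraries, and DMSO replicate 2 was well above DMSO replicate 1. The difference was 3.43 on the log2(TPM + 1) scale, with an SD of 12.9 TPM between the DMSO and of 33.2 TPM between the R406 libraries (n = 2 each).

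Sprr2a1 cannot be read alone, because Sprr2a2 and Sprr2a3 are near copies of it around the gene start. The windows of Sprr2a1 and Sprr2a2, from 250 bases before to 50 after the start, were identical over all 300 bases, and Sprr2a3 shared an unbroken run of 272 bases with both. No source used here states how the authors' counting divided reads that match more than 1 of these genes, so each single value is uncertain. Sprr2a2 measured 53.2 and 103.6 TPM in DMSO and 265 and 194.7 TPM in R406. Sprr2a3 measured 8.84 and 4.92 TPM in DMSO and 36.3 and 23.5 TPM in R406. Both had R406 libraries above both DMSO libraries. Neither is a member, and both were tested with limma over the 13929 genes averaging 1 TPM or more, with Benjamini-Hochberg adjustment over all of them. Sprr2a3 rose (log2 1.99 ± 0.35 SE, adjusted p = 0.0382) and Sprr2a2 did not pass (log2 1.60 ± 0.38 SE, adjusted p = 0.0697). Reads may be shared with Sprr2a1, a member chosen on this contrast, so these p-values are not independent of that choice and lend it no support. Sprr2a3 lost its call without DMSO replicate 2 (adjusted p = 0.0717), and Sprr2a2 passed without that library (0.0351), without R406 replicate 2 (0.0326) or with median centring (0.0483).

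A sum of the 3 copies depends less on how reads were divided among them, but is not free of it. Whether shared reads were dropped, counted more than once or given to other genes is not stated. Their sum was 78.9 and 143.6 TPM in DMSO and 598 and 468 TPM in R406, a 4.79-fold difference of means (2.30 on the log2 scale), with no overlap of the groups. When one library was left out at a time, the log2 difference of the sum lay between 1.87 and 2.73. Within the sum, Sprr2a1 held 21.4% and 24.4% in DMSO and 49.6% and 53.4% in R406, while Sprr2a2 held 67.4% and 72.1% and then 44.3% and 41.6%. The listed value of Sprr2a1 thus differed more between treatments than the sum of the copies did. The part of read assignment in this change of shares was not tested, and the transcripts of the copies were not compared.

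Sprr2g, the transcribed pseudogene, had the highest DMSO values of any member. It measured 47.3 and 52.1 TPM in DMSO and 2.2 and 2.83 TPM in R406, a 19.8-fold difference of means (log2 difference −3.86). Sprr2b, an envelope precursor gene, measured 26.1 and 22.1 TPM in DMSO and 1.47 and 1.08 TPM in R406 (log2 difference −3.47). In both genes the replicates of a treatment lay close together and the treatments far apart. Other Sprr2 genes are also related in sequence: the windows of Sprr2d and Sprr2e were identical at 90.3% of aligned bases, and Sprr2g had no window to compare. How reads were divided among these genes is not stated either, so the single values of all Sprr2 genes carry that uncertainty. Sprr2b is the next Sprr gene in line after Sprr2a3, its start lying 100.9 kb from that of Sprr2a1, so the direction of the values turned between neighbours.

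Sprr1a, the gene of this family known from nerve and heart injury, measured 25.8 and 19.0 TPM in DMSO and 1.40 and 1.02 TPM in R406 (log2 difference −3.40). Sprr1b, the other envelope precursor of the Sprr1 type, was lower in level, with 4.04 and 2.49 TPM under DMSO, a listed 0 in R406 replicate 1 and 0.399 TPM in R406 replicate 2. For both Sprr1 genes every DMSO library exceeded every R406 library. Sprr3, which lies between them, went the other way at very low levels: it was listed at 0 and at 0.0804 TPM in DMSO and stood at 0.692 and 0.218 TPM in R406.

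The remaining Sprr2 members were scarcely present. Sprr2e had 0.994 and 0.597 TPM with DMSO, and both of its R406 values were listed as 0. Sprr2f, known as an oestrogen-responsive gene of the uterus, had 0.136 and 0.108 TPM in DMSO and 0.113 and 0.110 TPM in R406, so its groups overlapped. Sprr2d and Sprr2h were listed at 0 in all 4 libraries. An exact 0 in a table without counts can be a failed estimate, and in these libraries the AP-1 gene Junb (named after its values were seen), at 46.1 to 66.5 TPM in 3 libraries, was listed at 0 in R406 replicate 2.

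Of the 10 members, 5 had DMSO libraries wholly above the R406 libraries (Sprr2b, Sprr2e, Sprr2g, Sprr1b and Sprr1a), 2 had them wholly below (Sprr2a1 and Sprr3), 1 overlapped and 2 were at 0 throughout. Among all tested genes, groups did not overlap in 30.2% with R406 lower and in 25.9% with R406 higher, and since the members were chosen on this contrast nothing is read from their count. Only 5 members reached the mean of 1 TPM required for the model. The median log2 difference over all 10 members was −0.42, against −0.02 over all genes tested, and it mixes genes at 0 with genes of opposite sign.

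Among Sprr genes outside the membership, Sprr2k also fell: it measured 10.95 and 7.24 TPM in DMSO, 0.108 TPM in R406 replicate 1 and was listed at 0 in R406 replicate 2 (log2 difference −3.24 ± 0.25 SE, limma adjusted p = 0.0125). Sprr2k averaged under 1 TPM with R406 and passed the filter only through DMSO. Sprr2i had 0.558 and 0.425 TPM with DMSO and a listed 0 in each R406 library, Sprr2c-ps reached 0.129 TPM in 1 DMSO library, and Sprr2j-ps and Sprr4 were listed at 0 in all 4. Without the 3 Sprr2a copies, the other 14 Sprr genes summed to 116 and 104.2 TPM in DMSO and to 5.98 and 5.65 TPM in R406, an 18.9-fold difference. The Sprr2a copies made up 40.5% and 58.0% of all Sprr TPM in DMSO and 99.0% and 98.8% in R406. The summed TPM of all 17 genes was 195 and 248 in DMSO and 604 and 474 in R406, so the total was higher with R406 while most expressed genes of the cluster were lower.

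**Figure D2:**
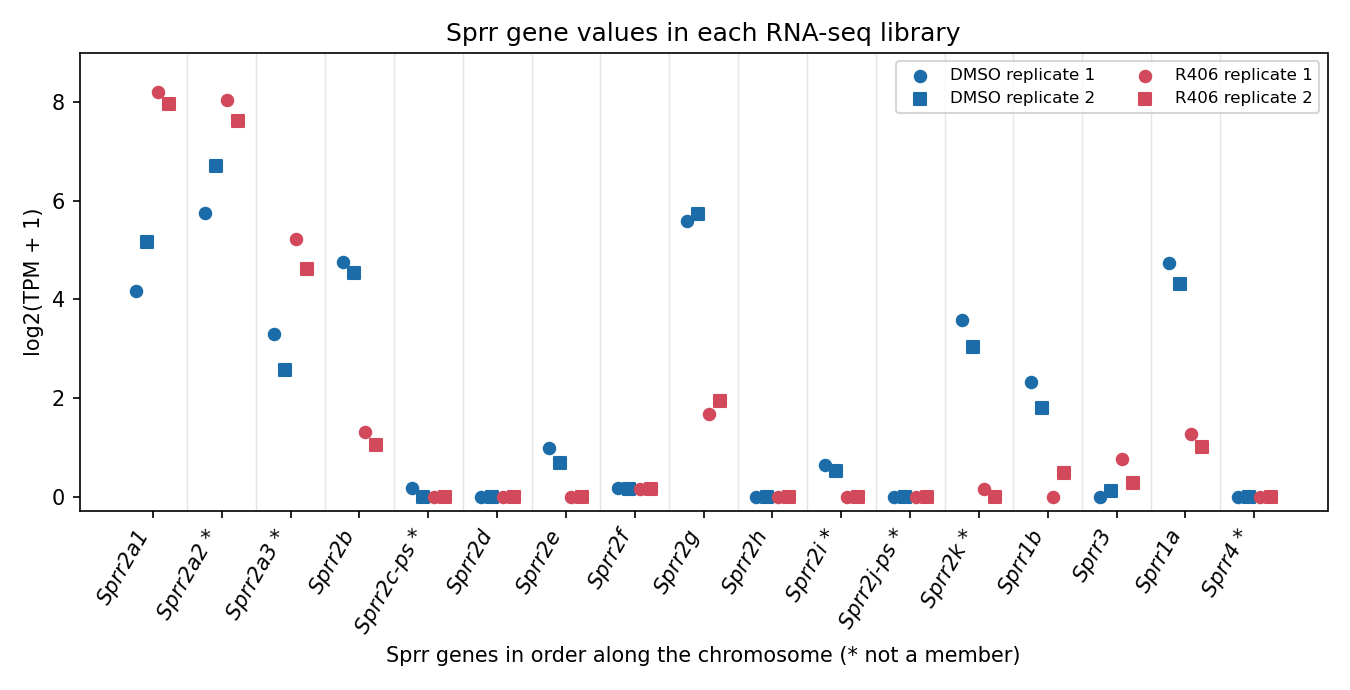
Values of the 17 Sprr genes in each RNA library, as log2(TPM + 1) on the y axis, in chromosomal order on the x axis; circles and squares are replicates 1 and 2, blue is DMSO and red is R406, and an asterisk marks genes that are not members. Red points lie above blue for Sprr2a1, Sprr2a2 and Sprr2a3 at one end, and blue above red for Sprr2b, Sprr2g, Sprr2k, Sprr1b and Sprr1a.

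**Figure D3:**
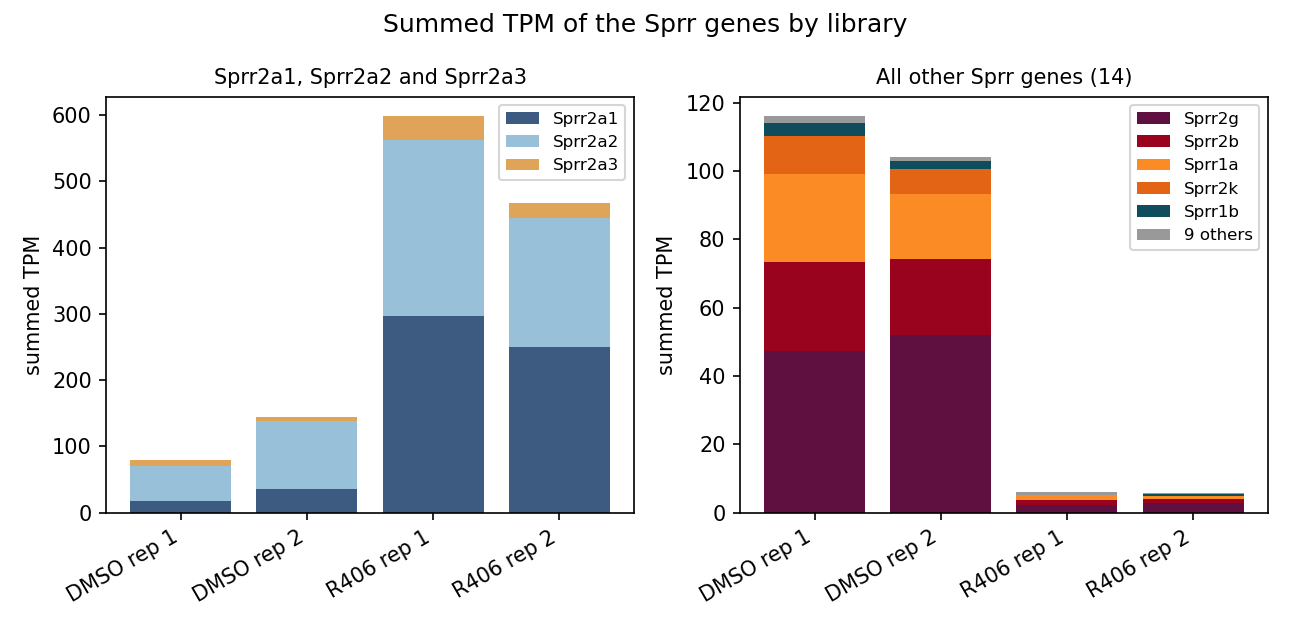
Summed TPM by library, split by gene, for the 3 Sprr2a copies (left) and the other 14 Sprr genes (right); the y axes start at 0 and differ in scale. The left sums are 78.9 and 143.6 TPM in DMSO against 598 and 468 in R406, and the right sums 116 and 104.2 against 5.98 and 5.65.

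Genes with the most similar profile were sought among 8977 other genes averaging 5 TPM or more, by the root mean square difference of centred log2(TPM + 1) over the 4 libraries. For Sprr2a1 these were Mybpc1, Gldc, Pdyn and Platr10, at distances of 0.31 to 0.33. For Sprr2g they were Ms4a6d, Ccl6, Ereg and Clec4n (0.10 to 0.21), and for Sprr2b Nrcam, Prr9, Tchh and Aif1l (0.09 to 0.18). Prr9 and Tchh belong to the same gene complex as the Sprr genes. With 4 libraries in 2 groups, such a profile is little more than the treatment difference and its size.

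Around the cluster, genes of the epidermal differentiation complex fell with R406 as most expressed Sprr genes were lower. Of 49 listed genes of the complex other than Sprr genes, 16 passed the filter of a 1 TPM mean; 8 fell, 0 rose and 8 did not pass, with 15 at an unadjusted p under 0.05. Over all genes limma called 4.05% lower and 4.26% higher. With no filter on low values it called 0 of 27879 genes (5394 at an unadjusted p under 0.05), so every call given here depends on the filter. Of the 16, 5 (Ivl, Tchhl1, Prr9, S100a3 and S100a7a) averaged under 1 TPM with R406 and passed the filter only through DMSO. The list median was −1.64, and 2 of the 16 differences were above 0 (S100a1 and S100a14, neither past the threshold, named after their values were seen).

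Prr9, a proline-rich protein gene, stood at 17.3 and 15.6 TPM in DMSO and 0.473 and 0.195 TPM in R406 (log2 difference −3.72 ± 0.21 SE, limma adjusted p = 0.00886). It lies 91.9 kb before Sprr2a1, so the 3 Sprr2a copies that were higher sit between it and Sprr2b, both of which were lower. Tchh, which encodes trichohyalin of the hair root sheath, fell from 42.2 and 27.0 TPM to 2.17 and 1.77 TPM (adjusted p = 0.0125). Ivl, which encodes the envelope precursor involucrin, fell from 2.98 and 3.19 TPM to 0.143 and 0.242 TPM (adjusted p = 0.0165), and Tchhl1 fell from 1.94 in both to 0.0666 and 0.0647 TPM (adjusted p = 0.0196). The loricrin gene Lor, named after its values were seen, measured 20.2 and 6.93 TPM in DMSO and 3.17 and 1.48 TPM in R406 and did not pass (adjusted p = 0.0923), but passed without DMSO replicate 2 (0.0185) or without R406 replicate 1 (0.0339).

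The other 4 genes of the complex that fell encode S100 calcium-binding proteins. S100a4 fell from 273 and 249 TPM to 48.5 and 64.7 TPM, S100a6 from 1327 and 1744 TPM to 393 and 637 TPM, S100a8 from 26.3 and 23.0 TPM to 5.49 and 8.88 TPM, and S100a16 from 194.4 and 143 TPM to 50.2 and 28.9 TPM (limma adjusted p of 0.0165 to 0.0473). S100a8 is also made by myeloid cells. Without DMSO replicate 1 the count of falling genes was 5, with S100a6, S100a8 and S100a16 at adjusted p of 0.0972, 0.101 and 0.0828. S100a6 was also past the threshold in neither leave-out of DMSO replicate 2 (0.149) nor that of R406 replicate 1 (0.0806), and S100a8 not without DMSO replicate 2 (0.0543). Median centring (0.0580), a mean of at least 5 TPM (0.0593) and TPM rescaled without ribosomal protein and mitochondrial genes (0.0505) also ended the call of S100a6. In 31 of the 49 genes no library reached 1 TPM, and 19, most of them late cornified envelope genes, were listed at 0 in all 4.

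Within 1000 kb on either side of the cluster, a window chosen after the data were seen, 8 of 51 other genes in the table were tested. Of these, 5 fell (Prr9, Ivl, Crct1, Tchh and Tchhl1) and 0 rose, where limma called 4.05% lower and 4.26% higher over all genes. All of the 5 but Crct1 were already counted above among the genes of the complex that fell, so this is not a separate result. Crct1, another small protein gene of the complex, stood at 10.7 and 7.86 TPM in DMSO and 0.478 and 0.372 TPM in R406 (limma adjusted p = 0.0125). The 3 that did not pass were Lor, Gm4202 and Gm9774, with log2 differences of −2.01 to −0.77. Of the 8, 4 (Prr9, Ivl, Crct1 and Tchhl1) averaged under 1 TPM with R406 and passed the filter only through their DMSO values, so the direction of the tested neighbours depends in part on the filter. Among genes it left out, values lay in both directions (genes named after their values were seen). Lce6a had 0.327 and 0.473 TPM with DMSO and 0.630 and 0.481 TPM with R406. Lce1h had 1.53 and 0.962 TPM with DMSO, Lce1g 0.655 and 0.353 TPM and Lelp1 0.101 and 0.191 TPM. Each of those last genes was listed at 0 in both R406 libraries.

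Nfatc1 peaks were not called in the cluster in either CUT&Tag library. In the deposited lists, 0 of 21246 DMSO peaks and 0 of 36885 R406 peaks overlapped the span of the members widened by 10 kb, and 0 did when it was widened by 50 kb. Within 10 kb of a gene, 31.7% of 49554 RefSeq genes had a DMSO peak and 44.5% an R406 peak, while 0 of 10 members had either. The nearest R406 peak lay 79.0 kb before Sprr2a1 (chr3:92136476-92136800, inside the span of Lelp1, with the authors' fold enrichment of 8.22 against a list median of 8.86). The nearest DMSO peak on that side lay 1513.6 kb away. On the other side both libraries had a peak at nearly the same place, 492.7 and 493.2 kb beyond Sprr1a (chr3:92978595-92979462 with DMSO and chr3:92979076-92979450 with R406).

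The cluster therefore lay in a stretch without peaks of 2276.4 kb with DMSO and 842.3 kb with R406. Stretches at least as long held 8.91% and 12.4% of RefSeq genes in the respective library, so such a position is not rare. With 1 library per treatment and lists of unequal length, the difference between the stretches has no replicate check. In the rest of the complex, R406 peaks within 10 kb were listed, among others, at Tchh (2 peaks, top fold 12.7) and Lce1m (1 peak), where the DMSO list had none, and both lists had peaks at S100a4, S100a6 and S100a8. At S100a9 the DMSO list had a peak within 10 kb and the R406 list had none. Counted over the complex list, 7 of 49 genes had a DMSO peak within 10 kb and 15 had an R406 peak. Among all RefSeq genes 31.7% had a DMSO peak and 44.5% an R406 peak at that distance. Close neighbours such as S100a4 and S100a5 can count the same peaks.

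**Figure D4:**
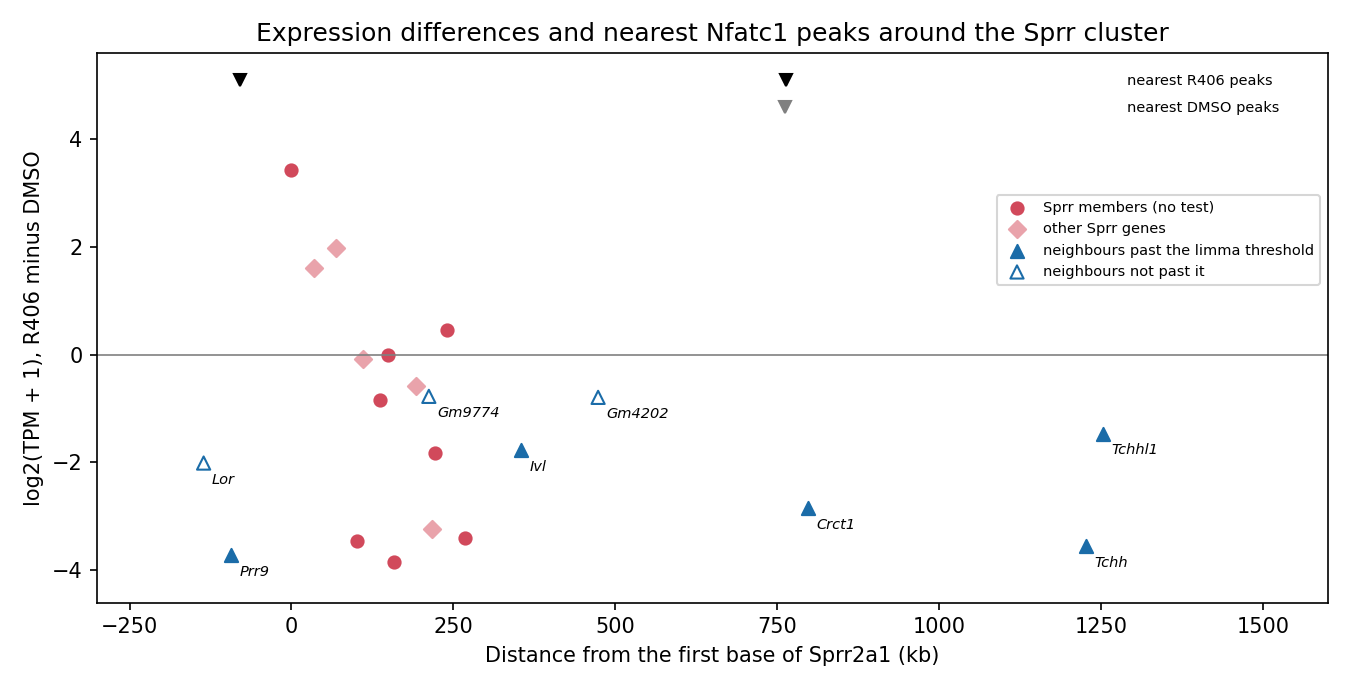
Difference in log2(TPM + 1), R406 minus DMSO (y axis), of Sprr genes and tested neighbours by distance in kb from the first base of Sprr2a1 (x axis); circles are members, diamonds other Sprr genes, and triangles neighbours, filled where limma's adjusted p passed. Sprr2a1, Sprr2a2 and Sprr2a3 stand above 0 with Prr9 below 0 to their left; arrowheads at the top mark the nearest R406 peaks at 79.0 kb before and 493.2 kb beyond the members and the DMSO peak at 492.7 kb.

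Genes listed with the envelope and the desmosome, not all of them parts of either, moved in both directions. Of 29 listed genes, 12 were tested, of which 4 rose, 3 fell and 5 did not pass (10 had an unadjusted p under 0.05, median −0.01). Over all genes limma called 4.26% higher and 4.05% lower. Among the risers, the secreted epidermal genes Krtdap and Dmkn rose from 2.34 and 3.20 to 12.6 and 10.6 TPM and from 12.3 and 13.7 to 46.4 and 41.7 TPM (limma adjusted p = 0.0208 and 0.0182). Cdh1, the E-cadherin gene, rose from 1.85 and 3.03 to 15.0 and 10.1 TPM, and the desmosomal plakophilin gene Pkp3 from 1.36 in both to 10.2 and 4.87 TPM. Falling were Anxa1, whose annexin product is cross-linked into envelopes, from 149.5 and 139 to 44.4 and 38.7 TPM (adjusted p = 0.0165), the desmosomal gene Perp from 48.5 and 51.9 to 22.6 and 22.2 TPM, and Dsp, which encodes desmoplakin, from 15.1 and 15.4 to 7.17 and 5.31 TPM. None of the 7 passed once DMSO replicate 1 was left out (adjusted p of 0.0633 to 0.159), and Perp failed whichever of the 4 libraries was omitted. Without DMSO replicate 2, 3 rose and 1 fell, and without R406 replicate 2, 4 rose and 1 fell. The envelope cross-linking enzyme gene Tgm1, named after its values were seen, was at 1.57 and 1.32 TPM in DMSO and 1.75 and 1.23 TPM in R406 (adjusted p = 0.964). The other listed transglutaminase genes did not all match it. Tgm2 was at 68.4 and 59.6 TPM in DMSO and 48.7 and 35.4 TPM in R406 (limma adjusted p = 0.182). Tgm5 was at 0.148 and 0.128 TPM in DMSO and 0.519 and 0.852 TPM in R406, and Tgm3 overlapped between groups. Tgm3 and Tgm5 were too low to be tested.

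Transcription factors known to act on Sprr promoters were called in both directions. Of 33 listed, 24 were tested, and 2 rose, 2 fell and 20 did not pass (over all genes, 4.26% were called higher and 4.05% lower), with 10 at an unadjusted p under 0.05 and a median of −0.18. Elf3, an Ets factor of epithelia, rose from 5.09 and 5.20 to 51.7 and 23.1 TPM (log2 2.54 ± 0.40 SE, limma adjusted p = 0.0314), and Klf5, an epithelial zinc finger factor, from 9.73 and 13.9 to 26.9 and 30.05 TPM (adjusted p = 0.0474). Fosl1, an AP-1 subunit, fell from 70.2 and 33.8 to 10.7 and 7.75 TPM (log2 −2.30 ± 0.40 SE, adjusted p = 0.0373), and Maf fell from 11.4 and 11.1 to 4.70 and 5.38 TPM (adjusted p = 0.0410). Jund, another AP-1 gene, stood at 387 and 164.6 TPM in DMSO and 346 and 115.6 TPM in R406, and Cebpb at 405.8 and 144.6 TPM against 432 and 146 TPM, so both differed more between replicates than between treatments. Elf3 and Fosl1 did not pass when DMSO replicate 1 was omitted (adjusted p = 0.0603 and 0.0653), nor Klf5 and Maf whichever library was omitted (0.0521 to 0.221). Klf5 also did not pass over genes averaging at least 5 TPM (0.0566).

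Genes of cytokine and growth factor signalling known to induce Sprr genes (ligands, receptors and the feedback gene Socs3) were called in one direction. Of 27 listed, 20 were tested, and 5 fell, 0 rose and 15 did not pass, with 11 at an unadjusted p under 0.05 and a median of −0.48. Over all genes limma called 4.05% lower and 4.26% higher. Of the 20, 4 (Il11, Il13ra1, Areg and Hbegf) averaged under 1 TPM with R406 and passed the filter only through DMSO. Tgfa averaged under 1 TPM with DMSO and passed only through R406. The direction of the calls thus depends in part on the filter. The epidermal growth factor receptor ligands Areg and Ereg fell from 51.9 and 33.5 to 0.928 and 0.912 TPM and from 34.3 and 27.8 to 1.20 and 1.63 TPM, and the alarmin gene Il33 from 28.8 and 26.7 to 2.43 and 2.64 TPM (limma adjusted p = 0.00886 for each). Osmr, a receptor for oncostatin M, fell from 22.9 and 24.1 to 8.82 and 9.40 TPM, and Il13ra1, an interleukin 13 receptor, from 1.78 and 2.05 to 0.379 and 0.503 TPM. Socs3, a feedback gene of this signalling, was at 153.7 and 106.6 TPM in DMSO and 118 and 68.1 TPM in R406 (adjusted p = 0.412). Without DMSO replicate 1 or 2 the count that fell was 3, with Osmr at adjusted p = 0.111 and 0.102 and Il13ra1 at 0.114 and 0.117. Without R406 replicate 1, Il13ra1 had 0.0821, and with median centring 0.0587.

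**Figure D5:**
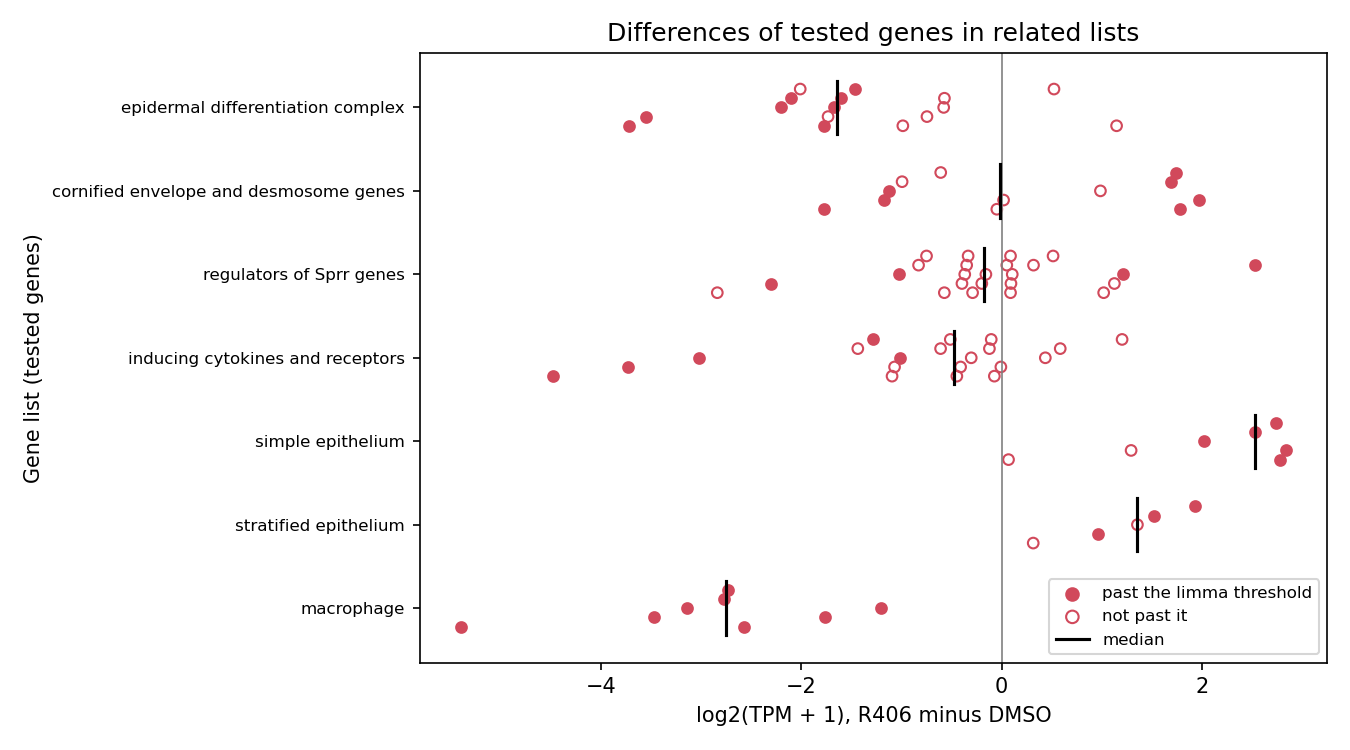
Difference in log2(TPM + 1), R406 minus DMSO (x axis), of the tested genes in 4 related lists and 3 marker lists (y axis); filled circles passed limma's adjusted p of 0.05, open circles did not, and black bars are list medians. Medians are −1.64 for the epidermal differentiation complex, −0.01, −0.18 and −0.48 for the next 3 lists, 2.53 and 1.36 for simple and stratified epithelium and −2.75 for macrophage markers.

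Markers of other cell types moved in the same libraries. Over all genes limma called 4.26% higher and 4.05% lower. Of 7 simple epithelium markers 5 rose and 0 fell, and their summed TPM was 145.7 to 153 in DMSO and 449.7 to 792 in R406. Stratified epithelium, the usual site of Sprr genes, was nearly absent by its markers. Of 13, 5 were tested and 3 rose (Krt10, Krt6a and Krt4). The summed TPM of the 13 was 6.22 to 6.25 in DMSO and 15.4 to 24.7 in R406. Of the 5 tested, 3 (Krt14, Krt6a and Krt4) averaged under 1 TPM with DMSO and passed the filter only through R406. Krt16 was listed at 0 in all 4 libraries, and Trp63, the master factor of that lineage, reached 0.0162 and 0.0365 TPM with DMSO and a listed 0 in each R406 library. Of 10 macrophage markers, 8 were tested and all 8 fell, with a summed TPM of 231 to 270.1 in DMSO and 7.40 to 7.48 in R406. Of these 8, 6 (Csf1r, Tyrobp, Fcer1g, C1qa, C1qb and C1qc) averaged under 1 TPM with R406 and passed the filter only through DMSO. The direction of the macrophage calls thus depends in part on the filter. Fibroblast markers were present in every library, with a summed TPM of 2650 to 2959 in DMSO and 3277 to 4352 in R406, 1 of 8 rising and 0 falling. Of 6 extraembryonic endoderm markers 4 rose, of which Sall4 averaged under 1 TPM with DMSO and passed the filter only through R406. The part of these cell types in the Sprr differences was not tested.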

How the data were processed

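RNA values were deposited by the authors as TPM per gene, in a table whose 4 columns equalled the 4 single files in all 53715 values. HISAT2 2.1.0, StringTie 2.0 and mm10 are named in the submitters' processing notes; no source used here states their roles, the annotation or how reads matching more than 1 gene were treated. The NEBNext Ultra kit, per the labels' protocols, does not mark strand. For CUT&Tag, the authors deposited 1 peak list per library which gives each peak a score, a fold enrichment (ratio) and the −log10 of its p-value and of its q-value. Per the submitters' processing notes Bowtie2 2.2.5 and MACS2 2.1.2 were among the tools; the control and calling limit are not stated there.

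Symbols were joined by Ensembl identifier (53620 genes), and positions, upstream windows and gene classes by symbol from RefSeq, GRCm38.p6. For R406 against DMSO, log2(TPM + 1) was fitted with limma 3.58.1 (R 4.3.3, trend, two-sided) over the 13929 genes averaging 1 TPM or more, with Benjamini-Hochberg adjustment and a threshold of 0.05; the model was tested on simulated data. Fold changes on this scale understate changes of low genes. Replicate numbers did not enter the model. Members and lists were chosen with earlier results of these data known. Of each list, the genes past the threshold are named, filled up to 6 by mean TPM where fewer passed. Similar profiles are the 4 nearest genes to each of the 3 members with the highest mean TPM. Peaks counted with at least 1 base of overlap. Sequences were compared with Biopython 1.88.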

Additional observations from a re-analysis of the deposited data

How the results depend on the processing

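Of the 8 members not listed at 0 throughout, 7 kept the sign of their difference under the pseudocounts, scalings and leave-outs run, and Sprr2f lay near 0 on either side, while sizes of low members moved with the pseudocount. The members' median of −0.42 lay between −0.51 and −0.34 with 1 library left out, and was −1.60 with a pseudocount of 0.1, −0.69 with 0.5, −0.53 with TPM rescaled without ribosomal protein and mitochondrial genes (chosen after seeing the data) and −3.40 over members averaging at least 1 TPM. Leaving out 1 library at a time gave 5 to 9 lower genes in the epidermal differentiation complex, 0 to 4 higher and 0 to 2 lower in the envelope list, 0 to 3 higher and 0 to 2 lower regulators, and 0 to 1 higher and 3 to 6 lower cytokine and receptor genes. With no filter on low values (27879 genes) limma called 0 genes over the whole table, with 5394 at an unadjusted p under 0.05, and so 0 in each list. A mean of at least 5 TPM left 5 lower genes in the complex and 1 higher regulator. Median centring and quantile normalization each gave 4 higher regulators and 1 higher cytokine or receptor gene, and the rescaled TPM gave 5 and 1. Over all genes, 593 were called higher and 564 lower, against 311 and 332 with a mean of at least 5 TPM, 2128 and 2535 with the replicate block, and 159 to 914 and 158 to 574 with 1 library left out.

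No label says that a replicate number marks a shared culture. Same-numbered libraries deviated together (r = 0.556 across genes, over 2 pairs only). With the replicate block, calls were 2 higher and 14 lower in the complex, 5 higher and 5 lower in the envelope list, 5 higher and 6 lower among regulators, and 2 higher and 9 lower among cytokine and receptor genes. Named genes that passed with the block and not without it were Lor (adjusted p = 0.00661), Sprr2a2 (0.0280), S100a1 (0.0110), S100a14 (0.0496) and Socs3 (0.0227). The count of Nfatc1 peaks in the cluster was also 0 with the span widened by 50 kb, the one alternative that could have raised it. Read depth behind the TPM values is unknown, so the precision of the low members cannot be given.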
